A study of Mus musculus with 18 samples.

Results

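The proteasome subunit genes of mouse intestine were followed across St. John's wort (SJW) feeding, azoxymethane (AOM) injection and tumour growth. Members were all genes of the array whose mouse symbol begins with Psma, Psmb, Psmc, Psmd, Psme, Psmf or Psmg and ends in a number, with the sample signal well above background on all 3 arrays of at least 1 group. All 48 such symbols on the array met this condition, out of 26073 genes tested. They comprise 5 immunoproteasome genes (Psmb8, Psmb9, Psmb10, Psme1 and Psme2), 34 genes of the constitutive core and regulatory particle (Psma1 to Psma7, Psmb1 to Psmb7, Psmc1 to Psmc6 and Psmd1 to Psmd14) and 9 other members (Psme3, Psme4, Psmf1, Psmg1 to Psmg4, Psma8 and Psmb11). For 47 of the 48 the signal was well above background on all 18 arrays. The exception was Psmb11, the thymus-specific catalytic subunit, whose probe was so on 6 arrays.

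All samples came from male C57BL/6 mice, with age, dose and timing not given in the sources used here. There were 6 groups of 3 arrays: tumours on the SJW diet after AOM, tumours on the control diet after AOM, non-tumour tissue on the SJW diet after AOM, non-tumour tissue on the control diet after AOM, non-tumour tissue on the SJW diet after saline, and non-tumour tissue on the control diet after saline. SJW is a medicinal herb, and AOM is a chemical carcinogen given to rodents to start tumours of the bowel. The design text calls the samples biological replicates, and no label ties a tumour to the non-tumour tissue of the same mouse. Each array set the sample RNA, in red, against pooled RNA, bought from Ambion, of 10 Swiss Webster mouse sources (embryo and organs such as brain, liver, spleen, testicle and thymus), in green. Every level given here is the log2 of red over green, so a level of 0 equals the pool and levels of different genes do not rank their transcripts. A change is the difference of 2 group means of such levels, given with its standard error (SE).

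The proteasome is the barrel-shaped protease that degrades ubiquitin-tagged proteins. Its core is built of rings of alpha subunits, which gate the channel, and beta subunits, some of which carry the proteolytic sites, and a regulatory particle with an ATPase ring and a non-ATPase lid recognises, unfolds and feeds in the substrate. In immune cells, and in other cells under interferon gamma, Psmb8, Psmb9 and Psmb10 take the places of the catalytic subunits Psmb5, Psmb6 and Psmb7, and the activator Psme1-Psme2 caps the core. This immunoproteasome favours peptides that fit MHC class I molecules. Transcription of the constitutive genes is known to be raised together by the factor Nfe2l1 when proteasome activity is short.

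Promoter sequences are shown for 5 members on which the results turn: the immunoproteasome genes Psmb8, Psmb9 and Psmb10, and Psma3 and Psmd14. By the brightest probe of each gene, these last 2 had the highest changes in control-diet tumours. They span 250 bases before to 50 bases after the start of each gene and come from RefSeq on build GRCm38.p6, at chr17:34197945-34198244 (plus strand) for Psmb8, chr17:34187281-34187580 (minus strand) for Psmb9, chr8:105938343-105938642 (minus strand) for Psmb10, chr12:70974373-70974672 (plus strand) for Psma3 and chr2:61711444-61711743 (plus strand) for Psmd14. They are written 5′ to 3′ with motif matches in capitals.
Psmb8: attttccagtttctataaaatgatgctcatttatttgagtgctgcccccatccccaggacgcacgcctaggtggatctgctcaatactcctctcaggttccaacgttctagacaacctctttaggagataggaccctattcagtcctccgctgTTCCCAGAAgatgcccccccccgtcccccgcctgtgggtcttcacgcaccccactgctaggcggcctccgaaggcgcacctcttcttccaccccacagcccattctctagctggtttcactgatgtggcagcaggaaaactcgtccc
Psmb9: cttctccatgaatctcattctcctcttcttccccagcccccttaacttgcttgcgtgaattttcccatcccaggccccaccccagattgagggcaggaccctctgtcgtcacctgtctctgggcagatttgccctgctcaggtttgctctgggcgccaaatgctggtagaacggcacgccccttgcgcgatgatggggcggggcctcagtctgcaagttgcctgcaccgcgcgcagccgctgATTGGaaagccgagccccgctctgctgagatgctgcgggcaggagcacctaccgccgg
Psmb10: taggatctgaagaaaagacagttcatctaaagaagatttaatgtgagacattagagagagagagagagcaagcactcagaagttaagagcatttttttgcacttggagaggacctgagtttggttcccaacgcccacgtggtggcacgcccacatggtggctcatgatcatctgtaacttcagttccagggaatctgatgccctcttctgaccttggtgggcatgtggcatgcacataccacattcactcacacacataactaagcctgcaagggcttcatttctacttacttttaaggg
Psma3: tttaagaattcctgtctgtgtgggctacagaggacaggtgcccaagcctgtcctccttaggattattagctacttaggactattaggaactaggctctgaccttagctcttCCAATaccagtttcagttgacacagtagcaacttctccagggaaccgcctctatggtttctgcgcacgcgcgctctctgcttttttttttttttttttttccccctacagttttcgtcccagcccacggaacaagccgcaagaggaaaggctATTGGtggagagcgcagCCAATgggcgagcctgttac
Psmd14: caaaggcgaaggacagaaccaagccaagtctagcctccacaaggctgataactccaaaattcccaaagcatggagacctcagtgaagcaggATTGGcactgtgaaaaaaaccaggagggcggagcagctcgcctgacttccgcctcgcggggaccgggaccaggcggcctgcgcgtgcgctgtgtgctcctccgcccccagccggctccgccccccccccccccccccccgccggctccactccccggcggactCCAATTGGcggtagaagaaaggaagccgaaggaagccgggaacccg
The motifs searched, on both strands, were the interferon-stimulated response element (GAAA, any 2 bases and GAAA again), the gamma-activated site TTCNNNGAA, the box named after its letters, CCAAT, and the antioxidant response element core TGACNNNGC. Of 32851 mouse promoters of this length, 3.44% hold the first, 8.3% the second, 37.4% the third and 12.4% the fourth. Psmb8 has 1 gamma-activated site, TTCCCAGAA. Psmb9 has 1 CCAAT box, Psma3 has 3, and Psmd14 has 3, of which 2 overlap. Psmb10 has no match to these letters in this window. Of the 40 members with a promoter in the table, 14 hold a CCAAT box, 6 the antioxidant core, 5 the interferon-stimulated element and 3 the gamma-activated site. A match is a description of the letters and not a binding site.

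Some facts of the arrays bear on what follows. Each of the 4 non-tumour groups had 1 array on each of 3 slides, scanned on an earlier day, and the tumours filled 2 other slides. A tumour change and a change of slide or scan day therefore cannot be told apart. The labelled tissue is small intestine, although liver is what the protocol for RNA extraction mentions. The 10 epithelial markers had mean levels of 2.46 to 3.30 in tumours and 3.75 to 4.24 in non-tumour tissue. The mean level of the 5 hepatocyte markers measured was -1.62 to -0.43 over the arrays. Single genes differed. Tat was above the pool on most arrays (up to 1.32), and Alb ran from -4.08 to 1.39. Ttr, Apoa2 and Fgb were below the pool on nearly all arrays. SJW AOM replicate 3 stood apart in pancreatic acinar markers, with a mean level of 4.02 over 8 genes, against -1.04 and -0.89 in the other replicates of its group. SJW saline replicates 1 and 2 had 0.70 and 1.63, against -1.06 in replicate 3, and no other array was above -0.52. On 6 arrays the pool channel was brighter than on the rest: 1 control tumour, 1 control AOM, 2 SJW saline and 2 control saline arrays. In bulk RNA, fewer cells of a type and less RNA per cell cannot be told apart.

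Levels of most members stayed near the pool. The median over the 48 members of the group means was 0.01 in SJW tumours, 0.21 in control tumours, -0.10 in SJW AOM tissue, -0.08 in control AOM tissue, -0.34 in SJW saline tissue and -0.33 in control saline tissue. Members above the pool numbered 24, 27, 19, 21, 12 and 13 in the same order of groups. The member with the highest ratio to the pool was Psma1, an alpha ring gene, in tumours (0.85 in SJW and 0.92 in control tumours), and Psmb10 in every non-tumour group (1.10 to 1.26). Lowest in every group was Psma8, the alpha subunit of the testis, with -4.82 to -3.01 over the arrays, against a pool that contains testicle; whether its probe shares signal with the near-identical Psma7 was not tested.

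**Figure D1:**
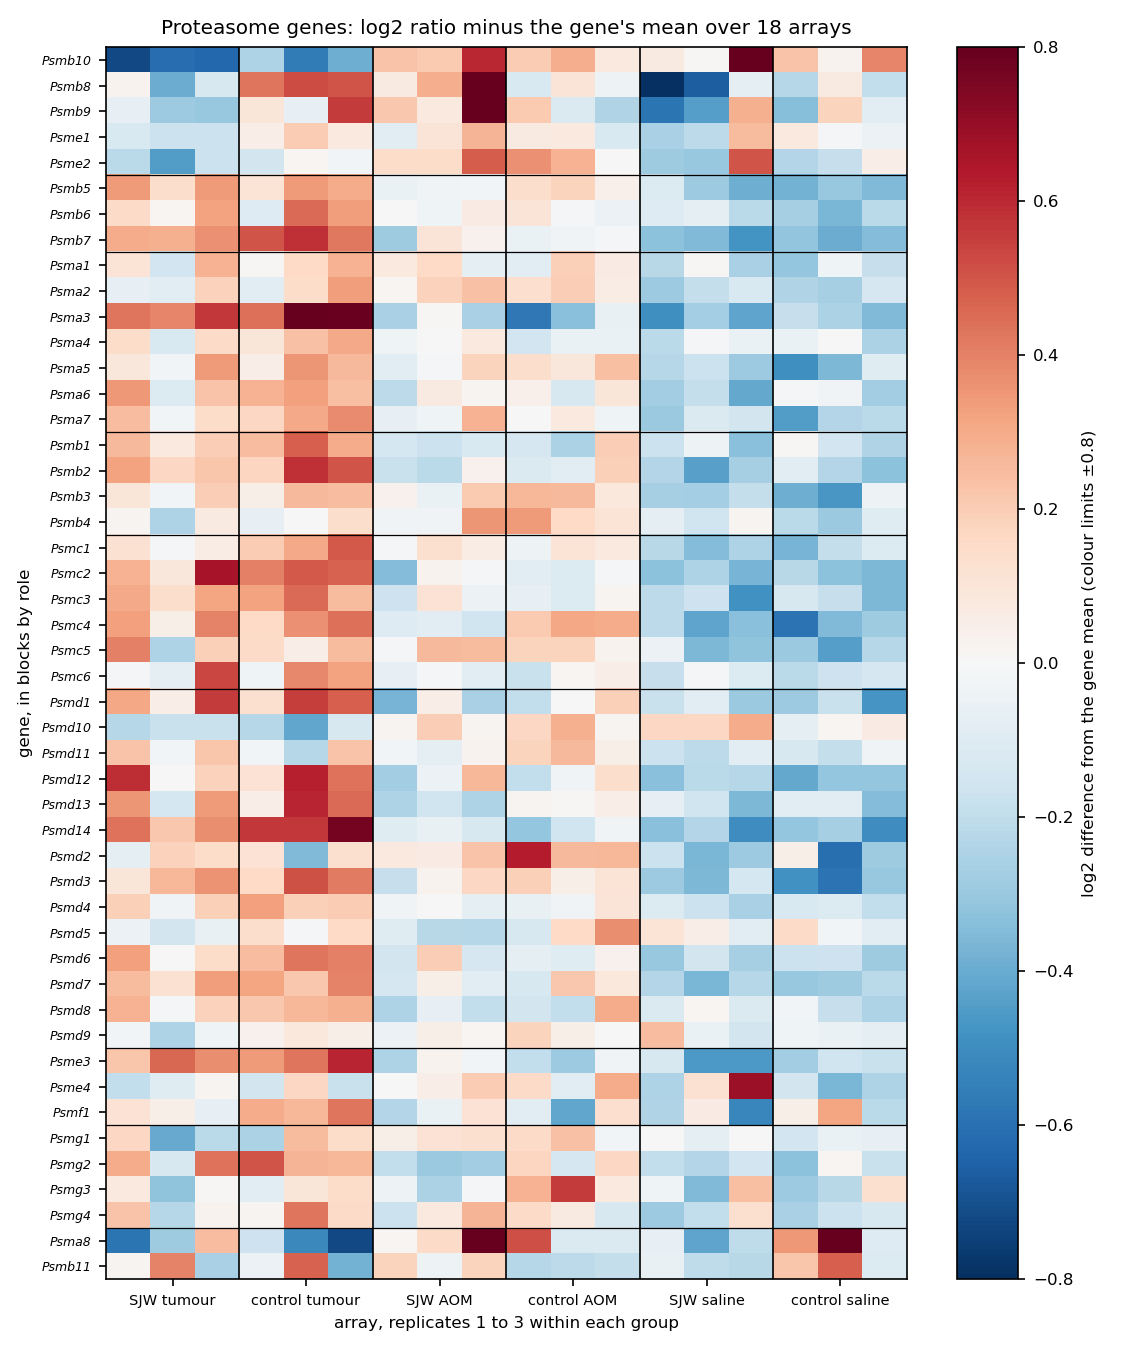
Log2 ratio of each of the 48 proteasome genes on each of the 18 arrays, minus the gene's own mean over the arrays (colour scale, with values beyond its limits in the end colours), with genes in blocks by role and arrays in groups of 3. Psmb10 is below its mean on all 6 tumour arrays, while Psma3, Psmd14 and Psme3 are above theirs there.

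In tumours, compared with non-tumour AOM tissue of the same diet, several constitutive subunits rose and 1 immunoproteasome gene, Psmb10, fell. Calls are at an adjusted p under 0.05 (limma, Benjamini-Hochberg over all genes tested), and p-values measure the spread between the samples. On the SJW diet 8 members rose and 1 fell, against 9.18% of all genes called higher and 15.4% called lower (24.6% in either direction). On the control diet 9 rose and 2 fell, against 12.7% and 19.3% of all genes (32% in either direction). Members that rose on both diets were Psma3, Psmb7, Psmc2, Psmd14 and Psme3, and the member that fell on both was Psmb10. The median change of the 48 members was 0.10 on the SJW diet and 0.24 on the control diet, beside -0.06 and -0.05 over all genes tested. On the SJW diet 32 of 48 changes were positive (44.3% of all genes), and on the control diet 34 of 48 (45.6% of all genes).

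These counts rested on few arrays and on the scaling. In SJW tumours 4 members were called without SJW AOM replicate 1 (1657 of all genes higher and 3103 lower) or SJW tumour replicate 1 (1804 and 2878). Without SJW tumour replicate 3 there were 3 (1688 and 2796). On the control diet 6 were called without control AOM replicate 1 (2347 and 3822) or 2 (2972 and 4626). Without control tumour replicate 2 there were 5 (2876 and 4232), and without replicate 3 there were 7 (2357 and 4087). When arrays were only centred on their medians, without loess, 4 members rose and 0 fell on the SJW diet (2703 and 1282 of all genes). On the control diet 6 rose and 0 fell (3777 and 1854 of all genes). The median of all genes then moved to 0.10 and 0.11 and that of the members to 0.44 and 0.49.

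Without the 3 arrays high in acinar markers, a choice made after seeing the data, 3 members were called in SJW tumours: Psma3 (0.59, adjusted p = 0.0362), Psme3 (0.46, adjusted p = 0.0472) and Psmb10 (-0.87, adjusted p = 0.00144). In control tumours, whose arrays were all kept, 12 were called, with Psmb8 (0.50, adjusted p = 0.0175) added. With only the compared groups in the fit, or without the bright-pool arrays, the calls of Psmb7, Psmc2, Psmd1 and Psmg2 in SJW tumours and of Psmd10 in control tumours ended, at adjusted p of 0.0524 (Psmg2) to 0.0971 (Psmc2).

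Psmb10, which replaces Psmb7 at the trypsin-like site, fell in tumours of both diets. Its levels (replicates 1 to 3 throughout) were 0.19, 0.30 and 0.28 in SJW tumours, against 1.14, 1.12 and 1.51 in SJW AOM tissue. In control tumours they were 0.66, 0.35 and 0.52, against 1.11, 1.20 and 0.99 in control AOM tissue. Saline tissue lay in the same range as AOM tissue, with 0.98, 0.92 and 1.72 on the SJW diet and 1.14, 0.94 and 1.30 on the control diet. No tumour array reached the lowest of the 12 non-tumour arrays. Psmb10 fell by 1.00 ± 0.18 (adjusted p = 0.00114, limma) on the SJW diet and by 0.59 ± 0.18 (adjusted p = 0.0237) on the control diet. The SJW call ended with median centring (-0.76, adjusted p = 0.0845). The control call ended with median centring (-0.41, adjusted p = 0.351), with the scanner's own log ratio (-0.40, adjusted p = 0.114), without the bright-pool arrays (-0.54, adjusted p = 0.0529), and without control AOM replicate 1 (0.0614) or 2 (0.0677) or control tumour replicate 2 (0.0839) or 3 (0.0537).

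Psmb8, which replaces Psmb5 at the chymotrypsin-like site, had levels of 0.14, -0.29 and -0.02 in SJW tumours, against 0.18, 0.40 and 1.06 in SJW AOM tissue. In control tumours it had 0.54, 0.63 and 0.61, against -0.01, 0.21 and 0.07 in control AOM tissue. Tumours were thus below non-tumour tissue on the SJW diet and above it on the control diet, with no overlap on either. Neither change passed, at -0.60 ± 0.24 (adjusted p = 0.0754) on the SJW diet and 0.50 ± 0.24 (adjusted p = 0.116) on the control diet. Without SJW AOM replicate 1 the SJW change was -0.78 (adjusted p = 0.0445), and the control change of 0.50 passed with only the compared groups in the fit (adjusted p = 0.041) and without the arrays high in acinar markers (adjusted p = 0.0175). Without SJW AOM replicate 3, the array high in acinar markers, the SJW change was -0.34.

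Psmb9, which replaces Psmb6 at the caspase-like site, had -0.02, -0.25 and -0.26 in SJW tumours, against 0.26, 0.12 and 0.96 in SJW AOM tissue. In control tumours it had 0.14, -0.02 and 0.60, against 0.25, -0.07 and -0.20 in control AOM tissue. The SJW groups did not overlap and the control groups did. Changes were -0.62 ± 0.25 (adjusted p = 0.082) on the SJW diet and 0.24 ± 0.25 (adjusted p = 0.486) on the control diet.

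The activator genes Psme1 and Psme2 did not pass on either diet. Psme1 had 0.38, 0.33 and 0.33 in SJW tumours, against 0.41, 0.60 and 0.77 in SJW AOM tissue, and 0.55, 0.70 and 0.58 in control tumours, against 0.57, 0.58 and 0.38 in control AOM tissue. Its changes were -0.25 ± 0.14 (adjusted p = 0.205) and 0.10 ± 0.14 (adjusted p = 0.616). Psme2 had 0.61, 0.38 and 0.65 in SJW tumours, against 0.97, 0.97 and 1.31 in SJW AOM tissue, which do not overlap. In control tumours it had 0.68, 0.84 and 0.80, against 1.19, 1.10 and 0.83 in control AOM tissue, which do. Its changes were -0.53 ± 0.19 (adjusted p = 0.0514) on the SJW diet and -0.27 ± 0.19 (adjusted p = 0.302) on the control diet. The SJW change passed with the red channel alone (-0.72, adjusted p = 0.0154), and at -0.53 with only the compared groups (adjusted p = 0.0311), with the brightness of the pool channel as a block (adjusted p = 0.044) and without the bright-pool arrays (adjusted p = 0.026). A second, dimmer probe of Psme2 was at -0.31 on the SJW diet and -0.11 on the control diet. With each probe fitted on its own, neither Psme2 probe was called on either diet. Of the 5 immunoproteasome genes, all 5 SJW changes were negative and 3 of 5 control changes positive; with median centring the Psme1 change on the SJW diet was 0.05.

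**Figure D2:**
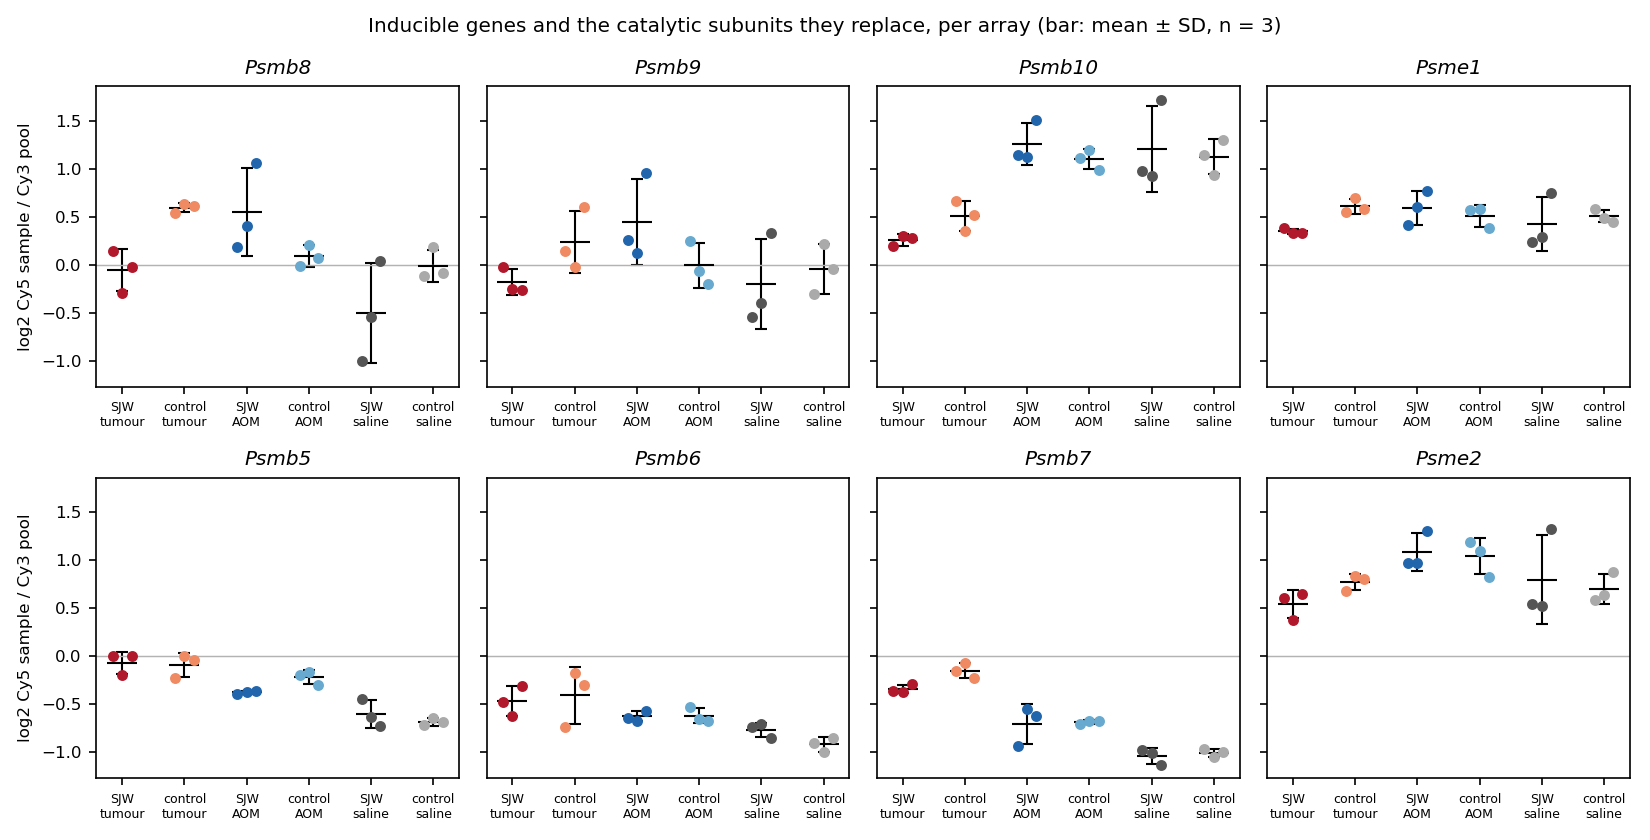
Log2 ratio of sample over pool for the 5 immunoproteasome genes and for Psmb5, Psmb6 and Psmb7, on each array (points) in the 6 groups, with mean ± SD (bars, n = 3). Psmb10 lies between 0.19 and 0.66 in tumours and between 0.92 and 1.72 elsewhere, and Psmb7 is higher in tumours than in any other group.

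Of the constitutive catalytic subunits Psmb7 rose on both diets, and Psmb5 and Psmb6 did not pass. Psmb7 had levels of -0.36, -0.37 and -0.29 in SJW tumours, against -0.94, -0.55 and -0.62 in SJW AOM tissue. In control tumours it had -0.15, -0.07 and -0.23, against -0.71, -0.68 and -0.67 in control AOM tissue. Groups did not overlap on either diet. Psmb7 rose by 0.37 ± 0.11 (adjusted p = 0.0258) on the SJW diet and by 0.54 ± 0.11 (adjusted p = 0.0019) on the control diet. The SJW call ended without SJW AOM replicate 1 (0.25, adjusted p = 0.131), SJW tumour replicate 1 (adjusted p = 0.0556) or SJW tumour replicate 3 (adjusted p = 0.0834), and with median centring (0.71, adjusted p = 0.0602) or the red channel alone (0.59, adjusted p = 0.0595). The control call ended with the red channel alone (0.40, adjusted p = 0.194). Psmb5 changed by 0.31 ± 0.11 (adjusted p = 0.052) on the SJW diet and 0.13 ± 0.11 (adjusted p = 0.385) on the control diet, and passed on the SJW diet without SJW tumour replicate 2 (0.38, adjusted p = 0.0366) and with the scanner's log ratio (0.44, adjusted p = 0.0337). Psmb6 changed by 0.16 ± 0.14 (adjusted p = 0.431) and 0.21 ± 0.14 (adjusted p = 0.248), and passed on the control diet without control tumour replicate 1 (0.38, adjusted p = 0.0308).

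Each inducible subunit can be set against the one it replaces, array by array. A value of 0 in this difference has no meaning of its own, because each gene is scaled to its own pool level, so only differences between groups are read. The Psmb10 minus Psmb7 difference averaged 0.60 ± 0.07 in SJW tumours and 1.96 ± 0.25 in SJW AOM tissue (SD, n = 3 each). It averaged 0.66 ± 0.21 in control tumours and 1.79 ± 0.12 in control AOM tissue, and the tumour ranges of 0.42 to 0.81 lay below every non-tumour array (1.66 or more). The Psmb8 minus Psmb5 difference averaged 0.01 ± 0.11 in SJW tumours and 0.92 ± 0.44 in SJW AOM tissue, but 0.68 ± 0.08 in control tumours and 0.31 ± 0.10 in control AOM tissue. The Psmb9 minus Psmb6 difference averaged 0.29 ± 0.22 in SJW tumours and 1.08 ± 0.40 in SJW AOM tissue, and 0.64 ± 0.42 in control tumours and 0.61 ± 0.15 in control AOM tissue.

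For the whole contrast, the median level of the 5 immunoproteasome genes minus that of the 34 constitutive genes averaged 0.17 ± 0.19 in SJW tumours, 0.42 ± 0.13 in control tumours, 0.79 ± 0.30 in SJW AOM tissue, 0.57 ± 0.16 in control AOM tissue, 0.73 ± 0.32 in SJW saline tissue and 0.84 ± 0.12 in control saline tissue (SD, n = 3 each). The median tumour change of the immunoproteasome genes minus that of the constitutive genes was -0.79 on the SJW diet and -0.15 on the control diet. Without SJW AOM replicate 3 the SJW value was -0.56. No test is given for these medians, since the genes were chosen with results of these arrays known.

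**Figure D3:**
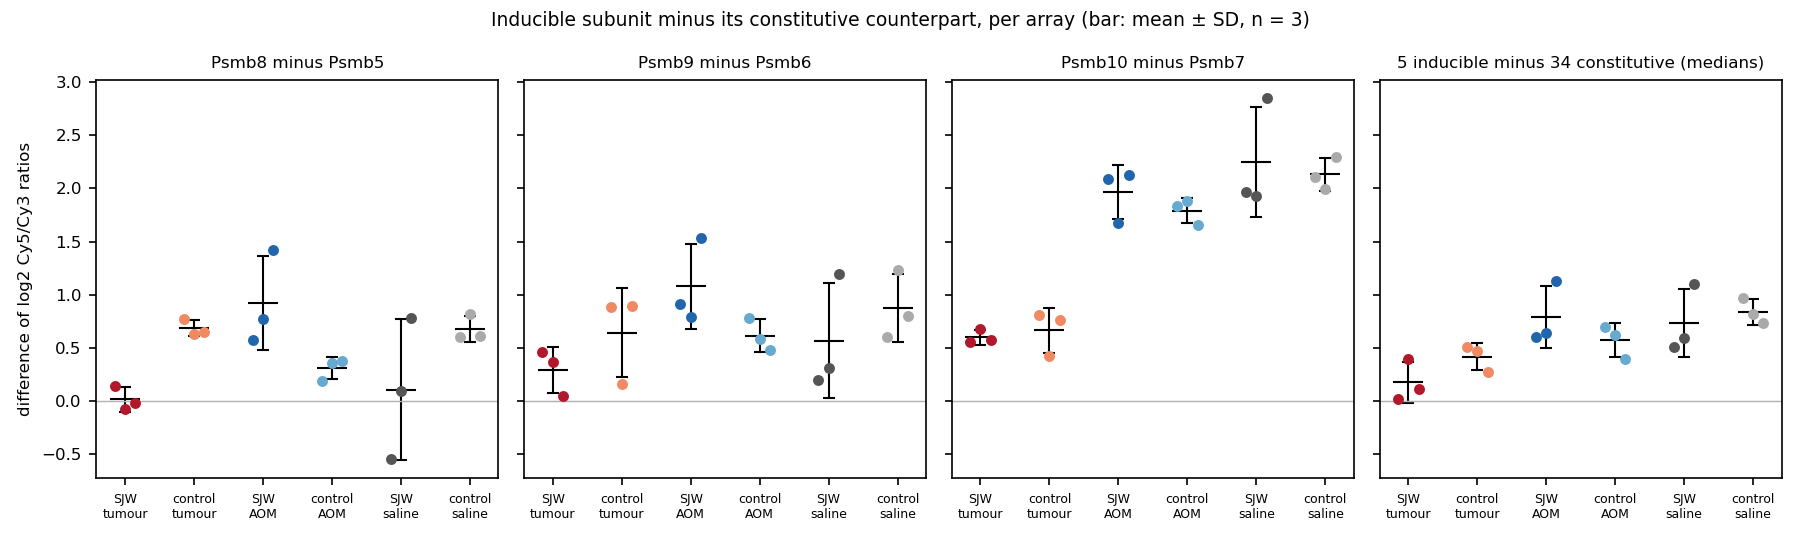
Difference of log2 ratios between each inducible subunit and its constitutive counterpart, and between the medians of the 5 inducible and 34 constitutive genes, on each array (points) with mean ± SD (bars, n = 3). The Psmb10 minus Psmb7 difference is 0.42 to 0.81 in tumours and 1.66 to 2.85 in non-tumour tissue, and the Psmb8 minus Psmb5 difference averages 0.01 in SJW tumours and 0.68 in control tumours.

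Of the 34 constitutive genes, 6 rose and 0 fell in SJW tumours, with a median change of 0.19, and 8 rose and 1 fell in control tumours, with a median change of 0.25. Over all genes tested, 9.18% rose and 15.4% fell on the SJW diet, and 12.7% rose and 19.3% fell on the control diet. The tumour counts per ring and per gene list that follow are read beside these shares. A count near them gives no result about a ring or list. In the alpha ring 1 of 7 genes passed on each diet, and it was Psma3. Its levels were 0.41, 0.37 and 0.55 in SJW tumours, against -0.28, -0.01 and -0.28 in SJW AOM tissue. In control tumours they were 0.42, 0.83 and 0.77, against -0.59, -0.35 and -0.08 in control AOM tissue. All 6 tumour arrays were above all 12 non-tumour arrays, since saline tissue had -0.51 to -0.20. Psma3 rose by 0.63 ± 0.15 (adjusted p = 0.00548) on the SJW diet and by 1.01 ± 0.15 (adjusted p = 0.00012) on the control diet, and both calls held without any 1 array and under each scaling tried. The other alpha genes had changes of -0.14 to 0.20 on the SJW diet and of -0.00 to 0.30 on the control diet.

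In the beta ring, Psmb1 and Psmb2 joined Psmb7 in control tumours, with changes of 0.40 ± 0.13 (adjusted p = 0.028) and 0.42 ± 0.13 (adjusted p = 0.0244). Psmb3 and Psmb4 had control changes of -0.02 and -0.18 and SJW changes of 0.02 and -0.15. A second, dimmer probe of Psmb3 was at 0.38 ± 0.11 (adjusted p = 0.0159) on the control diet and 0.26 ± 0.11 (adjusted p = 0.0949) on the SJW diet.

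The ATPase ring, which unfolds substrates, had 2 of 6 genes called on each diet. Psmc2 rose on both: its levels were -1.16, -1.35 and -0.78 in SJW tumours, against -1.79, -1.41 and -1.45 in SJW AOM tissue, and -1.04, -0.95 and -0.97 in control tumours, against -1.53, -1.55 and -1.45 in control AOM tissue. Groups did not overlap on either diet. The changes were 0.45 ± 0.14 (adjusted p = 0.0257) on the SJW diet and 0.53 ± 0.14 (adjusted p = 0.00896) on the control diet. The SJW call ended without SJW AOM replicate 1 (0.33, adjusted p = 0.122) or SJW tumour replicate 3 (0.30, adjusted p = 0.135), with median centring (0.78, adjusted p = 0.0544) and with the red channel alone (0.50, adjusted p = 0.0597). Psmc4 rose by 0.38 ± 0.12 on the SJW diet (adjusted p = 0.0364) and Psmc3 by 0.39 ± 0.12 on the control diet (adjusted p = 0.0212). The control-diet change of Psmc4 depended on the probe. The brightest was at 0.05, and a second, dimmer probe at 0.46 ± 0.12 (adjusted p = 0.00795, limma). On the SJW diet the second probe was at 0.45 ± 0.12 (adjusted p = 0.0113).

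The 14 Psmd genes encode subunits of the base and lid, with Psmd5, Psmd9 and Psmd10 known as chaperones of base assembly. Of these 14, 2 rose in SJW tumours, and 2 rose and 1 fell in control tumours. Psmd14, the deubiquitinase of the lid that cuts ubiquitin chains from substrates, rose on both diets. Its levels were 0.65, 0.43 and 0.59 in SJW tumours, against 0.12, 0.16 and 0.09 in SJW AOM tissue. In control tumours they were 0.78, 0.78 and 0.98, against -0.09, 0.06 and 0.19 in control AOM tissue. Groups did not overlap, and the changes were 0.43 ± 0.12 (adjusted p = 0.0148) on the SJW diet and 0.79 ± 0.12 (adjusted p = 0.000171) on the control diet. The control-diet call held without any 1 array and under each scaling tried.

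Psmd1, a large scaffold subunit of the base, had 0.17, -0.09 and 0.42 in SJW tumours, against -0.51, -0.09 and -0.40 in SJW AOM tissue, so the lowest tumour array was level with the highest non-tumour array. It rose by 0.50 ± 0.16 (adjusted p = 0.0356), but not without SJW AOM replicate 1 (0.42, adjusted p = 0.13) or 3 (0.47, adjusted p = 0.0992) or SJW tumour replicate 1 (adjusted p = 0.0804) or 3 (0.38, adjusted p = 0.155), nor with median centring (0.83, adjusted p = 0.0538). Psmd6, a lid subunit, rose by 0.41 ± 0.12 (adjusted p = 0.0187) on the control diet. Psmd10, a chaperone of base assembly also known as gankyrin, had 0.35, 0.16 and 0.45 in control tumours, against 0.74, 0.86 and 0.60 in control AOM tissue. It fell by 0.41 ± 0.11 (adjusted p = 0.0107), but was at -0.07 with median centring, -0.24 with the scanner's log ratio, -0.23 with the red channel alone, and missed the threshold without control tumour replicate 2 (-0.33, adjusted p = 0.0519). Its SJW change was -0.27 and did not pass.

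Of the remaining members, the nuclear activator Psme3 rose on both diets. Its levels were -0.03, 0.21 and 0.12 in SJW tumours, against -0.50, -0.22 and -0.27 in SJW AOM tissue, and 0.09, 0.18 and 0.36 in control tumours, against -0.45, -0.54 and -0.28 in control AOM tissue. Groups did not overlap. The changes were 0.43 ± 0.13 (adjusted p = 0.0254) and 0.63 ± 0.13 (adjusted p = 0.0019). Psme3 belongs to the family of Psme1 and Psme2, whose SJW-diet changes were negative and did not pass.

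Of the 4 assembly chaperones of the core, Psmg2 rose on the SJW diet by its brightest probe. With each probe fitted on its own, a second, dimmer probe was called on both diets, at 0.65 on the SJW diet and 0.68 on the control diet. The brightest was at 0.28 on the control diet and was not called, so no difference between diets is read from it. By the brightest probe Psmg2 had -0.18, -0.60 and -0.04 in SJW tumours, against -0.67, -0.77 and -0.75 in SJW AOM tissue, a change of 0.45 ± 0.15 (adjusted p = 0.0345). The call ended without any 1 of 5 of the 6 arrays compared, with changes of 0.33 (without SJW tumour replicate 3) to 0.48 (without SJW AOM replicate 1) and adjusted p of 0.0609 to 0.154; without SJW tumour replicate 2 it held. Psmg1, Psmg3 and Psmg4 did not pass on either diet, nor did the activator Psme4, the inhibitor Psmf1, Psma8 or Psmb11, each by its brightest probe. Other probes of Psme4 and Psmf1 differed when each was fitted on its own. Of the 3 Psme4 probes 2 were called on the control diet, with changes of -0.17 to 0.73 over the probes. Of the 3 Psmf1 probes 1 was called on the SJW diet, with changes of -0.37 to 0.2.

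**Figure D4:**
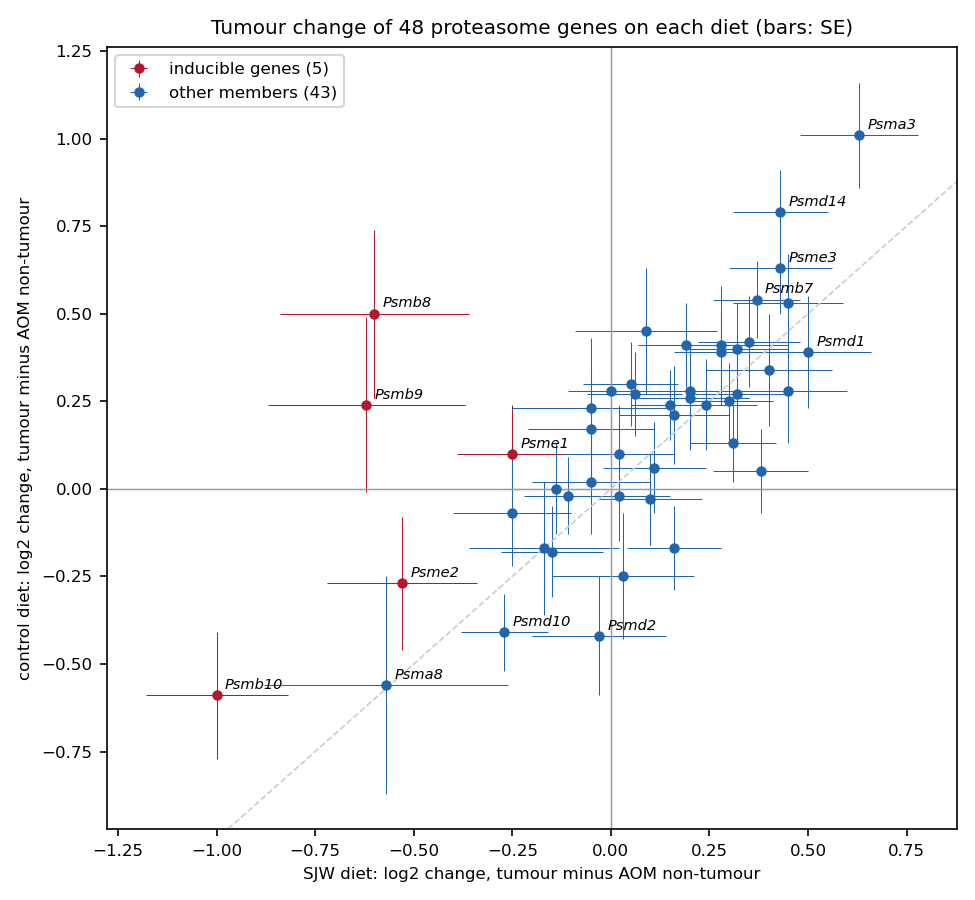
Tumour change of the 48 proteasome genes, as log2 difference of group means with SE bars, on the SJW diet (horizontal) and the control diet (vertical), with immunoproteasome genes in red and a dashed line of equality. Psma3, Psmd14, Psme3 and Psmb7 lie at the upper right and Psmb10 at the lower left, and Psmb8 and Psmb9 are negative on the SJW diet and positive on the control diet.

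Probes of one gene did not always agree. Of the 48 members, 15 had several kept probes, and the brightest was used. In each tumour comparison 6 of these 15 genes had probes with changes of opposite sign. For Psmd2, a scaffold subunit of the base, the brightest probe was at -0.03 ± 0.17 and the other at 0.48 ± 0.15 (adjusted p = 0.0315) on the SJW diet, and at -0.42 ± 0.17 and 0.55 ± 0.15 (adjusted p = 0.0114) on the control diet. For Psme4 the brightest probe had -0.17 on both diets, and the other probes 0.30 and 0.36 on the SJW diet and 0.52 and 0.73 on the control diet. These last 2 values were called, and no Psme4 probe was called on the SJW diet. For Psmd12 the brightest probe was at 0.41 ± 0.17 on the control diet and did not pass, and the other probes were at -0.08 and 0.99 ± 0.21 (adjusted p = 0.00194, limma). The probes of Psmd14, Psmb8 and Psmg2 had changes of one sign on each diet. Each of the 66 kept member probes was also fitted on its own, a choice made after the data were seen: 13 rose and 2 fell on the SJW diet and 18 rose and 2 fell on the control diet.

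**Figure D5:**
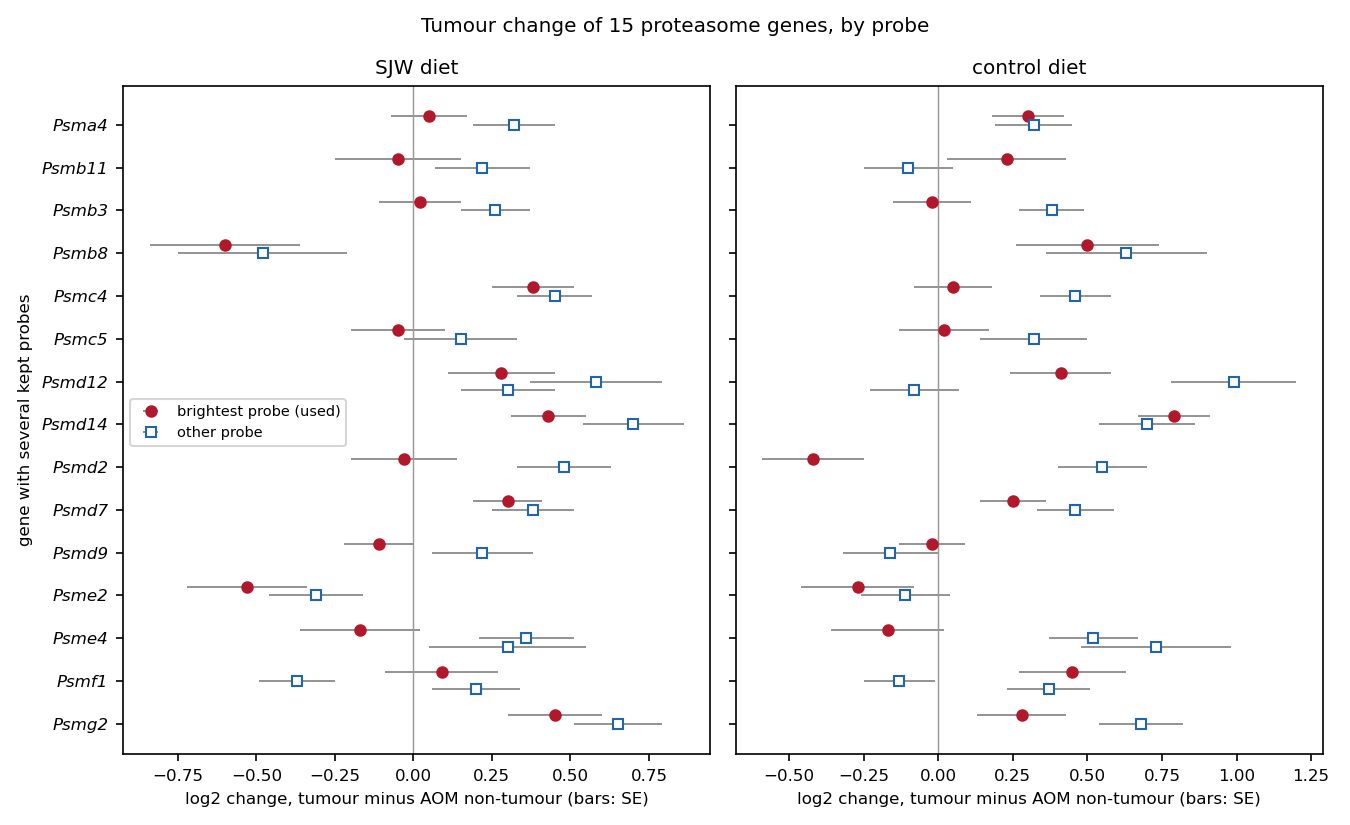
Tumour change of every kept probe of the 15 proteasome genes with several probes, as log2 difference with SE bars, on the SJW diet (left) and the control diet (right). Filled circles are the brightest probe, used elsewhere, and open squares the others; for Psmd2 and Psme4 they lie on opposite sides of 0 on both diets.

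After AOM, non-tumour tissue had higher levels of most members than after saline, but few passed. The median change was 0.21 on each diet, beside -0.02 on the SJW diet and -0.01 on the control diet over all genes tested. Changes were positive for 39 of 48 members on the SJW diet (47.1% of all genes) and for 43 of 48 on the control diet (48.9% of all genes). On each diet 1 member rose and 0 fell by limma, against 0.656% of all genes higher and 0.479% lower on the SJW diet, and 0.456% and 0.127% on the control diet. At an unadjusted p under 0.05, 9 members were higher and 0 lower on the SJW diet, and 16 and 0 on the control diet. Here and below, counts at an unadjusted p come without the share over all genes, so they give no result about the members. Within the 3 slides the members' median change was 0.10 to 0.25 on the SJW diet and 0.21 to 0.27 on the control diet.

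On the SJW diet the called member was Psmb8, with 0.18, 0.40 and 1.06 in SJW AOM tissue, against -1.0, -0.55 and 0.04 in SJW saline tissue. The groups did not overlap, the change was 1.05 ± 0.24 (adjusted p = 0.0459), and within slides it was 0.94 to 1.19. The call ended without any 1 of the arrays other than SJW AOM replicate 1, at changes of 0.79 (without SJW AOM replicate 3) to 1.32 (without SJW saline replicate 3) and adjusted p of 0.0603 to 0.183, and under each other scaling, at 0.89 to 0.99. Without the 3 arrays high in acinar markers, which are SJW AOM replicate 3 and SJW saline replicates 1 and 2, the change was 0.25 (adjusted p = 0.691). That value sets 2 arrays against the single SJW saline replicate 3, which is assumed to vary like the other groups. Psmb9 changed by 0.65 ± 0.25 (adjusted p = 0.176), Psme2 by 0.28, Psme1 by 0.17 and Psmb10 by 0.05. On the control diet the 5 immunoproteasome genes had changes of -0.03 to 0.34, with 0 called.

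Leukocyte markers were also higher after AOM on the SJW diet. The 5 markers (Ptprc, Cd53, Laptm5, Coro1a and Cd52) were all positive in the AOM change on the SJW diet, with a median of 1.24, and Laptm5 rose by 1.43 ± 0.30 (adjusted p = 0.0369). Their mean level was 0.05 to 0.95 in SJW AOM tissue and -0.90 to -0.65 in SJW saline tissue. Macrophage markers were at -0.68 to 0.46 and -1.50 to -1.14, with 3 of 6 called higher, and T and NK cell markers at -0.47 to -0.11 and -0.85 to -0.23, with 1 of 8 called. On the control diet macrophage markers were also higher after AOM, at -0.76 to -0.09 against -1.40 to -0.81 after saline. Control-diet leukocyte markers overlapped, at -0.20 to 0.78 and -0.72 to 0.43, as did T and NK cell markers, at -0.67 to -0.25 and -0.52 to -0.18. The 14 interferon regulators and targets had a median AOM change of 0.56 on the SJW diet and -0.01 on the control diet, with 0 called by limma and 4 and 0 higher and 0 and 0 lower at an unadjusted p under 0.05. Their mean level was 0.78 to 1.37 in SJW AOM tissue, against 0.04, 0.28 and 1.59 on the SJW saline arrays from lowest to highest, so these groups overlapped. The part of these cells and genes in the Psmb8 change was not tested.

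On the control diet the called member was Psmc4, an ATPase, with 0.30, 0.40 and 0.39 in control AOM tissue, against -0.50, -0.26 and -0.19 in control saline tissue. The change was 0.68 ± 0.12 (adjusted p = 0.0255) and 0.58 to 0.81 within slides. The call ended without the arrays high in acinar markers (0.68, adjusted p = 0.0541), of which none is in these groups, with only the compared groups (adjusted p = 0.205), without the bright-pool arrays (0.85, adjusted p = 0.375), and without control AOM replicate 1 (adjusted p = 0.0726) or 2 (0.0881) or control saline replicate 1 (0.59, adjusted p = 0.121) or 2 (0.074); without control saline replicate 3, 2 members passed. It also ended with the scanner's log ratio (0.42, adjusted p = 0.199) and the red channel alone (0.45, adjusted p = 0.38). A second, dimmer probe of Psmc4 was at 0.40 ± 0.12 (adjusted p = 0.118, limma) after AOM on the control diet and did not pass. The SJW-diet change of Psmc4 was 0.11 to 0.33 within slides. Of the 34 constitutive genes, 33 were positive on the control diet (median 0.25) and 28 on the SJW diet (median 0.21); all 3 of Psmb5, Psmb6 and Psmb7 had positive changes on both diets, of 0.47, 0.30 and 0.32 on the control diet and 0.23, 0.14 and 0.33 on the SJW diet. Median centring gave a members' median of 0.62 on the control diet and 0.07 on the SJW diet.

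Markers of other cell types differed between the same groups. The median change of the 7 smooth muscle markers after AOM was 1.90 on the SJW diet and 2.32 on the control diet, with 0 of 7 called, and in tumours -2.51 and -3.03, with 6 of 7 lower on each diet. The 8 proliferation markers had median changes of 0.33 (2 called higher) and 0.50 (4 called higher) in tumours and of 0.29 and 0.49 (1 called higher) after AOM. Epithelial markers fell in tumours in 9 of 10 and 10 of 10 genes. In tumours, 0 of the 5 leukocyte markers passed on either diet (medians -0.81 on the SJW and -0.46 on the control diet), while 3 of 6 B and plasma cell markers were lower on each diet and 2 of 6 macrophage markers higher on each. Of 6 fibroblast markers 2 rose and 0 fell in SJW tumours and 4 rose and 1 fell in control tumours, with median changes of 0.97 and 0.98. Of 5 neutrophil markers 4 rose in control tumours, with mean levels of 0.10 to 1.5, against -0.61 to -0.24 in control AOM tissue, and 0 passed in SJW tumours, with -0.84 to 0.67, against -1.05 to -0.28 in SJW AOM tissue. The part of these cell types in the tumour changes of the members was not tested.

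No member passed between the diets by limma. Of the 48 members 0 passed between SJW and control tissue after saline, after AOM or in tumours, where 0% of all genes passed too. After saline the share over all genes depended on the fit: 69 genes were higher and 2 lower with slide as a block, 274 and 17 without control saline replicate 3, 199 and 5 without SJW saline replicate 1, and 0 members passed in each of these. Without the 3 arrays high in acinar markers, which leaves SJW saline replicate 3 alone in its group, 300 genes were higher and 38 lower, among them 1 member, Psme4 (0.93 ± 0.20, adjusted p = 0.0381). At an unadjusted p under 0.05, 1 member was higher and 1 lower after saline, 0 and 4 after AOM, and 0 and 3 in tumours. In tumours 42 of 48 members were lower on the SJW diet, with a median difference of -0.12, beside 51.9% positive differences and a median of 0.01 over all genes. The members' median was -0.16 on the tumour slide with 4 arrays and -0.08 on that with 2, with 4 and 11 positive members. After saline the members' median was 0.00 with 27 positive, but 0.46 with 45 positive under median centring, so no direction is given. After AOM it was -0.02 with 21 positive.

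The largest tumour difference between diets among the named members was that of Psmb8, whose levels in the 3 SJW tumours (-0.29 to 0.14) lay below those in the 3 control tumours (0.54 to 0.63). The difference was -0.65 ± 0.24 (adjusted p = 0.763), at -0.65 and -0.63 on the 2 tumour slides. Psmb9 had a difference of -0.41 ± 0.25, Psme1 of -0.26 ± 0.14, Psmb10 of -0.25 ± 0.18 and Psme2 of -0.23 ± 0.19, which did not pass. Whether the tumour change differed between diets was tested directly, and 0 members passed, with 0 higher and 2 lower at an unadjusted p under 0.05. These were Psmb8 at -1.10 ± 0.33 (adjusted p = 1) and Psmb9 at -0.87 ± 0.36 (adjusted p = 1). For the difference of AOM changes between diets 0 members passed as well, with 3 higher and 1 lower at an unadjusted p under 0.05, among them Psmb8 at 0.95 ± 0.33 (adjusted p = 0.508). The 2 differences of changes share the AOM arrays, so their values for Psmb8 are not independent.

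Other genes that work with the proteasome were also measured. Of 23 measured cofactors, assembly factors, ubiquitin genes, shuttles and regulators, 2 rose and 1 fell in SJW tumours (median change 0.06), and 2 rose and 5 fell in control tumours (median -0.14), beside the shares of 9.18% higher and 15.4% lower on the SJW diet and of 12.7% and 19.3% on the control diet over all genes. Usp14, the deubiquitinase bound to the regulatory particle, rose by 0.47 ± 0.14 (adjusted p = 0.0192) on the SJW diet and 0.87 ± 0.14 (adjusted p = 0.000224) on the control diet. Its levels were 0.29, 0.47 and 0.61 in SJW tumours, against -0.18, 0.27 and -0.14 in SJW AOM tissue, and 0.52, 0.68 and 0.78 in control tumours, against -0.32, -0.20 and -0.13 in control AOM tissue. Zfand5, a proteasome-stimulating zinc finger protein, rose by 0.48 ± 0.13 and 0.43 ± 0.13.

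Ngly1, the deglycosylase that processes the factor Nfe2l1 into its active form, fell on both diets. It had -1.20, -1.01 and -1.28 in SJW tumours, against -0.34, -0.46 and -0.40 in SJW AOM tissue, and -1.47, -1.16 and -1.32 in control tumours, against -0.21, -0.27 and 0.07 in control AOM tissue. It fell by 0.76 ± 0.14 (adjusted p = 0.000839) and by 1.18 ± 0.14 (adjusted p = 1.68e-05). Also lower in control tumours were Nfe2l1 at -0.36 ± 0.13, the antioxidant factor Nfe2l2 at -0.62 ± 0.20, the lid component Sem1 at -0.41 ± 0.13 and the adaptor Ecpas at -0.50 ± 0.15, named here because they were the called members of the list. After AOM 0 of the 23 passed by limma, with 3 higher and 3 lower on the SJW diet and 6 higher and 0 lower on the control diet at an unadjusted p under 0.05. Between diets 0 passed too, with 1 lower after AOM, 1 higher in tumours and 0 after saline at an unadjusted p under 0.05.

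Genes of MHC class I antigen processing, which act on proteasome products, had 0 higher and 1 lower of 10 in SJW tumours (median -0.33) and 1 higher and 0 lower in control tumours (median 0.01). Tapbp, the peptide loading factor tapasin, fell by 0.54 ± 0.16 (adjusted p = 0.0206) on the SJW diet, and Nlrc5, a transcriptional activator of class I genes, rose by 0.67 ± 0.22 (adjusted p = 0.0329) on the control diet. Tap1, the peptide transporter encoded next to Psmb9, had 0.60, 0.28 and 0.48 in SJW tumours, 1.06, 0.73 and 1.25 in control tumours, 0.48, 0.65 and 1.31 in SJW AOM tissue and 0.70, 0.31 and 0.33 in control AOM tissue. It is named after its values were seen. Its tumour change did not pass on either diet, at -0.36 ± 0.24 (adjusted p = 0.291) on the SJW diet and 0.57 ± 0.24 (adjusted p = 0.0868) on the control diet.

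Of 14 interferon regulators and targets, 0 rose and 4 fell in SJW tumours (median -0.65), and 1 rose and 2 fell in control tumours (median -0.10). Irf1, an interferon-induced factor known to act on immunoproteasome promoters, fell by 0.75 ± 0.20 (adjusted p = 0.0136) on the SJW diet and by 0.65 ± 0.20 (adjusted p = 0.0222) on the control diet, and Irf8, a myeloid and B cell factor, fell by 0.60 ± 0.21 and 0.68 ± 0.21. The chemokine gene Cxcl9, induced by interferon gamma, had 1.85, 0.74 and 1.07 in SJW tumours, against 0.17, 0.29 and 1.46 in SJW AOM tissue, and 2.15, 2.00 and 2.80 in control tumours, against 0.17, 0.11 and 0.28 in control AOM tissue. It rose by 2.13 ± 0.34 (adjusted p = 0.000288) on the control diet. Oas1a and Gbp2, both interferon targets, fell by 1.27 ± 0.31 and 0.99 ± 0.29 on the SJW diet. The mean level of the 14 genes was 0.35 to 0.70 in SJW tumours, 0.73 to 1.05 in control tumours, 0.78 to 1.37 in SJW AOM tissue, 0.66 to 1.03 in control AOM tissue, 0.04 to 1.59 in SJW saline tissue and 0.84 to 1.02 in control saline tissue. Its part in the immunoproteasome values was not tested.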

How the data were processed

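The deposited files were scanner output of 18 Agilent arrays with 2 colours, made by the authors with Agilent Feature Extraction 10.10.1.1 (protocol GE2_1010_Sep10, array annotation build mm9, per the file headers). They hold red and green signal and background intensity per spot and, per the file headers, the scanner's log10 ratio of red over green. The deposited value table, used as an alternative, proved to be the log2 of red over green when set against the scanner values (35399 of 35491 entries matched, slope 1). It is not centred; its column medians, replicates 1 to 3, were 0.182, 0.125 and 0.156 in SJW tumours, 0.157, 0.125 and 0.342 in control tumours, 0.11, 0.129 and -0.031 in SJW AOM, 0.103, 0.206 and 0.0529 in control AOM, 0.228, 0.148 and 0.148 in SJW saline and 0.16, 0.207 and 0.152 in control saline tissue.

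Median signals were background-corrected (normexp, offset 50) and loess-normalised within each array in limma 3.58.1 under R 4.3.3, with 1639 control spots at weight 0 and population outliers left out. No dyes were swapped, so a dye effect of a probe cancels only between groups. Spots of a probe were averaged, probes were kept if red was well above background on all 3 arrays of any group (34081 of 41174), and the brightest kept probe stood for a gene. Symbols came from RefSeq through the array's accessions (27050 probes with 1 symbol, 14124 without). All 18 arrays entered 1 fit of 6 groups (12 residual degrees of freedom, eBayes), with p-values adjusted over 26073 genes, and the fit was tested on simulated data. Median red intensity was 336.5 to 786.5 on tumour arrays and 133 to 375 on the others; the number of arrays limits the precision.

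Members and gene lists were chosen with earlier results of these data known. Named in every comparison were the 5 immunoproteasome genes and Psmb5, Psmb6 and Psmb7, with the 4 largest called members in each direction; values per array were given for the same 8 and the 6 other members with the largest called tumour change; of the other lists, the 3 called genes with the smallest p per tumour comparison were named. Any other gene was named after its values were seen. Alternatives were other scalings, the deposited table, no filter, the mean of kept probes, fewer groups, slide and replicate blocks and leaving out each array. Added after seeing the data were a block for, and the omission of, the 6 arrays with a bright pool channel, the omission of 3 arrays with a mean acinar marker level above 0, and a fit of each probe. In the 4 non-tumour groups replicate numbers 1 to 3 are also slides 1 to 3, per the file headers. Residuals of same-numbered samples correlated over 0.1 in all 3 pairs in 1 comparison, between diets after saline (0.17, 0.41 and 0.36). Because the numbers are also slides there, a pairing of samples and a slide effect cannot be told apart. A replicate block left 0 members called in that comparison. In the other comparisons some pair was at or under 0.1 (lowest -0.35).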

Additional observations from a re-analysis of the deposited data

How the results depend on the processing

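In the tumour comparisons the direction of the members' median held under each scaling tried, but counts of called members moved. On the SJW diet 9 members were called, against 4 with median centring, 2 (of 15 listed) in the deposited table, 4 with only the compared groups in the fit, and 5 without the bright-pool arrays. On the control diet 11 were called, against 6, 2, 7 and 4 under the same settings and 18 with the scanner's log ratio. Over all genes, higher before lower, the deposited table called 2460 and 2335 of 21586 on the SJW diet and 3517 and 2430 on the control diet. With only the compared groups the calls were 2332 and 4933, and 1854 and 3653, of 26073. Without the bright-pool arrays they were 2479 and 4991, and 1906 and 4013. The scanner's log ratio called 4848 and 3246 on the control diet. After AOM the 1 call on the SJW diet became 0 with median centring, the scanner's log ratio, the deposited table, the red channel alone, no filter on dim probes, only the compared groups, the block for or the omission of bright-pool arrays. The 1 call on the control diet became 0 with the scanner's log ratio, the deposited table, the red channel alone, only the compared groups and without bright-pool arrays. The cause was not tested, except that the deposited table lists 15 members. Leaving out 1 array gave 3 to 10 calls in SJW tumours, 5 to 16 in control tumours, 0 to 1 after AOM on the SJW diet and 0 to 2 on the control diet. It gave an immunoproteasome minus constitutive change of -0.91 to -0.56 in SJW tumours and of -0.07 to 0.36 after AOM on the SJW diet. Without the bright-pool arrays this AOM change was 0.42, against 0.07, and its difference between diets 0.53, against 0.25. With the replicate number as a block, 10 members were called in SJW tumours (8 higher, 2 lower), where Psme2 passed at -0.53 (adjusted p = 0.0466), and 11 in control tumours; 8 of 21 same-numbered pairs had residuals correlated over 0.1. Without the 3 arrays high in acinar markers, 3 members were called in SJW tumours and 12 in control tumours, 0 after AOM on either diet and 1 between diets after saline (against 0), and the immunoproteasome minus constitutive change was -0.56 in SJW tumours (against -0.79), -0.44 after AOM on the SJW diet (against 0.07), 0.38 between diets after saline (against -0.09) and -0.14 for the difference of AOM changes (against 0.25). Only 14 of the 81 named pairs of gene and comparison were called in the main fit, so most of the 1502 recomputed values had no call to lose. Of these values 71 lost a call, 14 gained one and 0 reversed. A reversal needed a call in either fit, so sign changes of uncalled genes were not counted. With slide as a block 81 of 81 kept their state. In the tumour comparisons slide entered only as a random block (correlation -0.0265), which cannot remove a slide difference between tumour and non-tumour arrays. Signal over background was 5.24 to 12.2 on tumour arrays and 2.08 to 5.92 on the others, so small changes of dim genes are the least certain.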
